A study of Homo sapiens with 6 samples.

Results

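The replacement histone variants are H2A and linker histones whose genes are read throughout the cell cycle. They take the place of the replication-dependent histones in chosen stretches of chromatin. The 7 genes H2AZ1, H2AZ2, H2AX, H2AJ, MACROH2A1, MACROH2A2 and H1-10 were taken by symbol from the 35322 genes of the count matrix. The rule uses no measured value, but the group was proposed with earlier results of these data known. H3.3 and CENPA genes were not included. After a filter on low counts, 6 of the 7 were among the 16510 genes tested, and H2AJ was not.

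The RNA came from 22Rv1, a human prostate carcinoma cell line. The 6 RNA-seq libraries comprised 2 control libraries, 2 of ZMYND11 kd1 and 2 of ZMYND11 kd2. The labels give no added treatment in any of the 3 groups and call the genotype WT in the control cells and ZMYND11 knockdown in the other two groups. The study's text describes its RNA sequencing of 22Rv1 as made on cells with a stable control shRNA or one against ZMYND11, which the label WT does not mention. Which shRNA made kd1 or kd2 is not given in the sources used here. Nothing states whether libraries of a group came from separate cultures, so the p-values measure only the spread between libraries, which may be technical.

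ZMYND11, the targeted gene and a reader of trimethylated lysine in the H3.3 tail, was measured at 140.7 and 134.6 counts per 1000000 (CPM, on library sizes scaled by TMM factors) in control. It was at 27.7 and 26.1 CPM in kd1 and at 21.6 and 22.7 CPM in kd2, far below control in all 4 knockdown libraries. Library totals ran from 26844128 to 38193748 counts and TMM factors from 0.876 to 1.134. The 20 proliferation markers stood apart between groups, with summed levels of 2097 and 2116 CPM in control, 172.3 and 166.1 CPM in kd1, and 292.2 and 271.0 CPM in kd2. All 20 were lower in both knockdowns by edgeR, MKI67 by a log2 fold change of -8.11 in kd1 and -6.59 in kd2 and PCNA by -1.19 and -0.83. None was at 0 in any library, the lowest count being 17. Their part in the results on the variants was not tested. Of the 10 luminal prostate markers, 5 were higher and 4 lower in kd1 and 5 higher and 5 lower in kd2, where 38.2% and 39.8% of all tested genes were called higher and lower in kd1 and 36.5% and 36.9% in kd2. KRT8 was at 314.8, 693.2 and 372.1 mean CPM in control, kd1 and kd2, and the 5 endothelial markers had at most 6 counts in a library. The 6 immune markers summed to between 2.13 and 4.11 CPM in every library, and of the 4 tested 1 was higher and 1 lower in kd1 and 1 higher and 2 lower in kd2, beside the same shares over all genes. LYZ, one of the 4, passed the filter on low counts through control alone.

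A nucleosome holds a pair of H2A-H2B dimers, and the choice of H2A changes how that nucleosome is remodelled, marked and read. H2AZ1 and H2AZ2 encode the nearly identical H2A.Z proteins, which chromatin remodellers exchange into nucleosomes at active promoters and enhancers. H2AX carries the serine that DNA damage kinases phosphorylate around breaks. H2AJ encodes an H2A with a distinct C-terminal end that accumulates in senescent cells. The macroH2A proteins of MACROH2A1 and MACROH2A2 carry a large macrodomain outside the nucleosome and mark silent chromatin. H1-10 encodes a linker histone, which binds the DNA between nucleosomes.

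The start regions of 4 variants are given here. They were chosen because their RNA differed from control by more than 1 log2 unit in either knockdown. Each run covers the 250 bases before to 50 after the start, 5′ to 3′ on the gene's strand, from RefSeq on GRCh38.p14. All 7 genes matched this table, MACROH2A1 with 2 starts. Capitals mark CCAAT boxes (CCAAT, read as ATTGG on the other strand), the TATA box (TATAAA) and the cell cycle homology region (TTTGAA or TTCGAA, read as TTCAAA on the other strand).
H2AZ1 (chr4:99950226-99950525, minus strand): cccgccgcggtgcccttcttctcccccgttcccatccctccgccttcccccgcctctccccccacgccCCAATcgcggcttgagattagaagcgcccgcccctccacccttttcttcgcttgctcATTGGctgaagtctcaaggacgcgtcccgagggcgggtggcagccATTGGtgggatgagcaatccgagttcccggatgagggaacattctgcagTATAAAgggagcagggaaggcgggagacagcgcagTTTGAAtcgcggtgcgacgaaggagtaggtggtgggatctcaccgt
H2AX (chr11:119095416-119095715, minus strand): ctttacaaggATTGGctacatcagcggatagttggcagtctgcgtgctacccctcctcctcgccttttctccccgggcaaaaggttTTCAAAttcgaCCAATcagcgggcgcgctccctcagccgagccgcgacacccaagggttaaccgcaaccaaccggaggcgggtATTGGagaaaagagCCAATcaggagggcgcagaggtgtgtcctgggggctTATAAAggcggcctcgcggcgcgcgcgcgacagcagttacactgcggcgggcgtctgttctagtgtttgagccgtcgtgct
MACROH2A2 (chr10:70052596-70052895, plus strand): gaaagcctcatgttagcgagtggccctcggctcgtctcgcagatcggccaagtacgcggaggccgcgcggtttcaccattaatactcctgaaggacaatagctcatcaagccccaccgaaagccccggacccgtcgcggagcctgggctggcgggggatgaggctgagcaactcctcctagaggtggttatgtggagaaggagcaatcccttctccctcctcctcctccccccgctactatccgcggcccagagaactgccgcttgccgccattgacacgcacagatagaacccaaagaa
H1-10 (chr3:129316237-129316536, minus strand): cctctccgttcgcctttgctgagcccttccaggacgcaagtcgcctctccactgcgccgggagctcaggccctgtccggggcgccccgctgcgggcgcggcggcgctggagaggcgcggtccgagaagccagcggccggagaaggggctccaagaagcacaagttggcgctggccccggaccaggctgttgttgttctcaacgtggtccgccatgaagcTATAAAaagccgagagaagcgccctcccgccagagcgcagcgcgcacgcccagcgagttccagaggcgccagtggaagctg

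Both strands were searched, and no site of one motif overlapped another. The H2AZ1 window held 3 CCAAT boxes and the H2AX window 4. In both genes, and in H1-10, a TATA box began 31 bases before the start. MACROH2A2 held none of the motifs searched. Among the members not printed, H2AZ2 held 4 CCAAT boxes, H2AJ 3, and the upstream one of the 2 MACROH2A1 starts 2. A cell cycle homology region lay in the H2AZ1, H2AZ2 and H2AX windows. Of the 35116 windows of this length in the table, 34.6% held CCAAT, 11.5% TATAAA and 16.4% a cell cycle homology region. The E2F site, taken as TTTCCCGC, TTTCGCGC, TTTGCCGC or TTTGGCGC, was in 3.3% of the windows and the E-box CACGTG in 7.3%, and no member held either. These letters describe the windows and show no binding.

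Against control, kd1 raised 4 of the 6 tested variants and lowered 0 at an adjusted p under 0.05 in edgeR, against a background of 38.2% of all tested genes called higher and 39.8% called lower. In kd2, 3 were higher and 2 lower, where 36.5% of all genes were called higher and 36.9% lower. At an unadjusted p under 0.05 in edgeR the count of lower variants in kd1 was also 0. By DESeq2 it was 0 too (36.6% of all genes), as it was with the DESeq2 size factors in edgeR (39.6%). It was not 0 under the other scalings. Library totals alone gave 2 higher and 2 lower in kd1, beside 27.8% and 51% of all genes. Offsets for GC content gave 5 and 1 (39.1% and 39% of all genes). With gene length added it was 4 and 1 (39.1% and 38.2%), and with offsets for the canonical transcript 4 and 2 (39.8% and 38.4%). As most genes were called in each comparison and the variants number only 6, their sizes are given gene by gene. The median log2 fold change of the 6 was 0.37 in kd1 and 0.05 in kd2, beside -0.03 in both over all tested genes. With library totals alone these medians were 0.01 and -0.12, and over the other scalings they ran from 0.17 to 0.49 in kd1 and from -0.04 to 0.30 in kd2. Both comparisons share the same 2 control libraries.

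**Figure D1:**
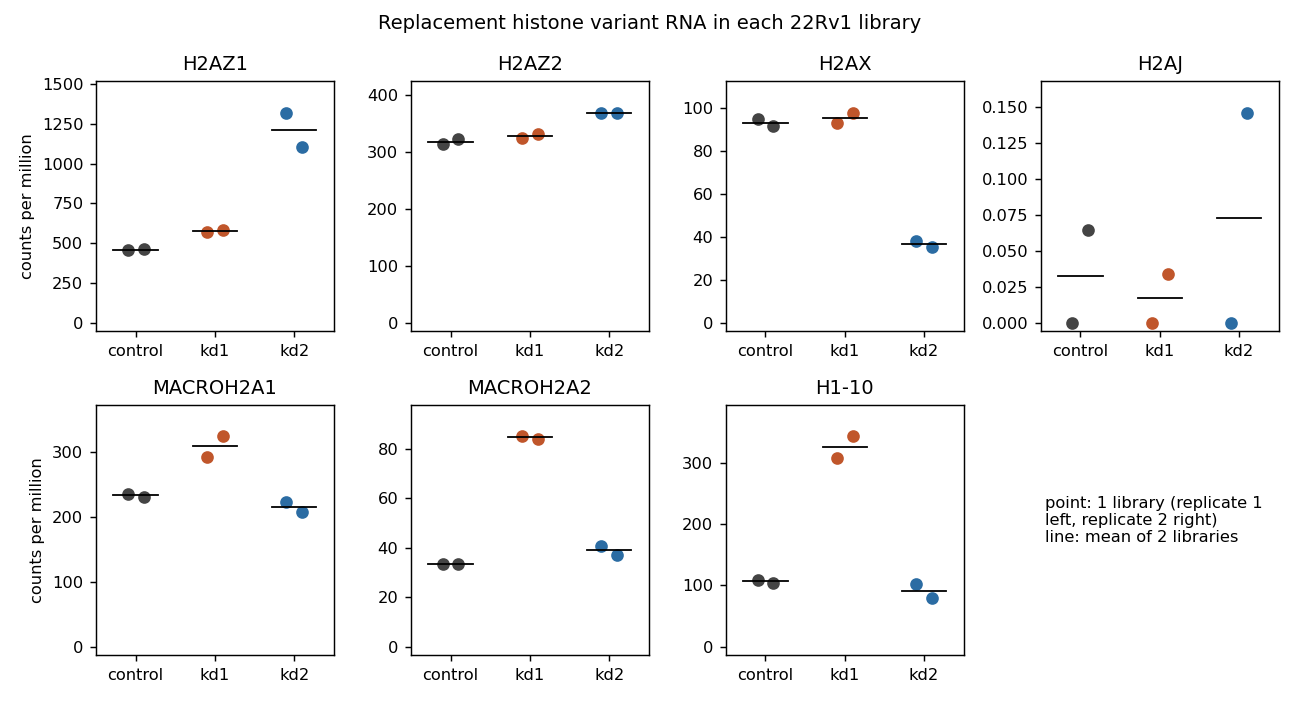
CPM of each replacement histone variant in the control, kd1 and kd2 libraries, on a linear axis of its own for each gene. Points are single libraries and lines the mean of 2. H2AZ1 was highest in kd2 (1321 and 1108 CPM), H2AX lowest in kd2 (38.3 and 35.1 CPM), and MACROH2A2 and H1-10 highest in kd1 (85.1 and 84.1 CPM, and 307.2 and 343.3 CPM).

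H2AZ1 lies on chromosome 4 at 99948086-99950355 (GRCh38, minus strand), with 5 exons in its canonical transcript. Its RNA was at 455.2 and 462.9 CPM in control, 570.2 and 585.9 CPM in kd1, and 1321 and 1108 CPM in kd2. The 3 groups did not overlap, and the kd2 libraries stood well above all others. Against control the level was 2.65-fold higher in kd2 (log2 fold change 1.40, SE 0.07, adjusted p = 2.38e-10 in edgeR). This rise was called under all 17 alternative settings, with values from 1.20 to 1.53. In kd1 the difference was 1.26-fold (log2 0.33, SE 0.07, adjusted p = 0.000486 in edgeR). It turned to -0.023 when counts were scaled by library totals alone and to -0.10 with offsets for GC content and gene length, neither called. With offsets for GC content alone it was 0.39, called higher. With those of the canonical transcript it was -0.15, called lower (adjusted p = 0.00508 in edgeR).

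H2AZ2, on chromosome 7 at 44826791-44848087 (minus strand, 5 exons), encodes the second H2A.Z protein. It was at 313.6 and 321.9 CPM in control, 324.1 and 331.5 CPM in kd1, and 368.7 and 369.1 CPM in kd2. The groups did not overlap, but the steps between them were small. The kd1 difference missed the threshold at a log2 fold change of 0.04 (95% interval -0.06 to 0.15, adjusted p = 0.416 in edgeR). In kd2 the level was 1.16-fold higher, a log2 fold change of 0.22 (SE 0.05, adjusted p = 0.00116 in edgeR). The kd1 direction depended on the scaling, being called lower with library totals alone (-0.31) and higher with offsets for GC content (0.27), for GC content and gene length (0.46) and for those of the canonical transcript (0.21). With library totals alone the kd2 value was 0.04 and not called.

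Within each library, the count of H2AZ1 over that of H2AZ2 gives a ratio that no factor common to all genes of a library can change. It was 1.45 and 1.44 in control, 1.76 and 1.77 in kd1, and 3.583 and 3.001 in kd2. Each knockdown library lay above both control libraries. On the log2 scale the ratio averaged 0.53 in control, and stood 0.29 higher in kd1 and 1.18 higher in kd2. The kd1 shift rests on leaving the genes without offsets of their own, as it was 0.11 with an offset for GC content and turned to -0.57 with offsets for GC content and gene length and to -0.36 with those of the canonical transcript. In kd2 the shift was 1.23, 0.91 and 1.07 in that order. Over all 4 knockdown against 2 control libraries the difference was 0.74 (exact permutation test, two-sided p = 0.133, the smallest this design allows). For each knockdown alone the exact permutation p was 0.333, also the smallest possible with 2 libraries against 2. The coding sequences of the pair were 80.5% identical over 384 bases and the transcripts shared no run longer than 23 bases. Other copies were closer, since 8.9% of the 50-base windows of the H2AZ1 transcript also lay in H2AZ1-DT or H2AZP3 and 7.3% of those of H2AZ2 in 46 other genes, so reads there may have been assigned elsewhere.

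**Figure D2:**
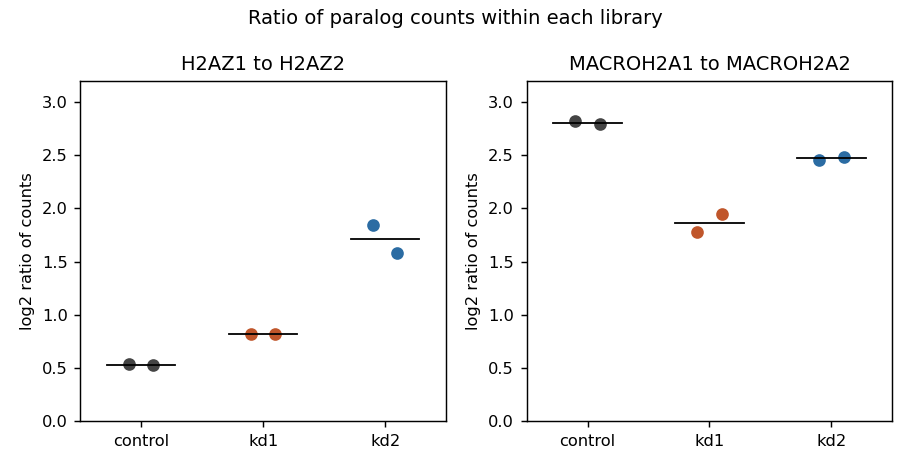
Log2 ratio of the counts of H2AZ1 to H2AZ2 (left) and of MACROH2A1 to MACROH2A2 (right) in each library of control, kd1 and kd2. Points are libraries and lines the mean of 2. The H2A.Z ratio averaged 0.53, 0.82 and 1.71 in control, kd1 and kd2, and the macroH2A ratio 2.81, 1.86 and 2.47.

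H2AX, a gene of 1 exon on chromosome 11 at 119093874-119095465 (minus strand), fell in kd2. It was at 94.97 and 91.38 CPM in control, 93.0 and 97.8 CPM in kd1, and 38.3 and 35.1 CPM in kd2. The control and kd1 libraries overlapped, and the kd2 libraries lay far below both. Against control the kd2 level was 2.54-fold lower (log2 fold change -1.34, SE 0.06, adjusted p = 1.76e-10 in edgeR). The fall was called under all 17 alternative settings, with values from -1.60 to -1.28. In kd1 the log2 fold change was 0.03 (95% interval -0.10 to 0.17, adjusted p = 0.624 in edgeR).

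The kd1 value of H2AX turned with the scaling. It was -0.32 with library totals alone, -0.66 with an offset for GC content, -1.30 with offsets for GC content and gene length, and -1.002 with those of the canonical transcript, each called lower. The H2AX transcript has a GC content of 66.8%, above that of 98.4% of the tested genes, whose median was 48.1%. Across 16072 genes the kd1 fold changes had a Spearman correlation of 0.20 with GC content and -0.29 with gene length, against -0.02 and -0.13 in kd2, given as a description since genes share their libraries. Whether this trend is technical or belongs to the genes was not tested.

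H2AJ, on chromosome 12 at 14774405-14778002 (plus strand), was close to absent from the counts. It had 0 and 2 counts in control, 0 and 1 in kd1, and 0 and 5 in kd2. A library with 0 counts allows a level of up to 3 counts, which is 0.0986 CPM in the first control library, 0.0883 CPM in the first kd1 library and 0.0840 CPM in the first kd2 library, for counting error only. H2AJ stayed below the filter, so no fold change is given, and no difference between groups was detectable at this depth. The germline histone variants were likewise at 10 counts or fewer in every library, and 5 of the 12 in the matrix were at 0 throughout.

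MACROH2A1 lies on chromosome 5 at 135334381-135399914 (minus strand), with 9 exons in the canonical transcript, 8 of them coding. Its RNA was at 235.3 and 230.9 CPM in control, 292.9 and 324.1 CPM in kd1, and 223.4 and 208.1 CPM in kd2. The kd1 libraries were the highest of the 6, and the kd2 libraries lay just under control. In kd1 the level was 1.32-fold higher (log2 fold change 0.40, SE 0.06, adjusted p = 2.02e-05 in edgeR). The rise was not called with library totals alone (0.05, adjusted p = 0.425 in edgeR), and offsets for GC content and gene length took it to 1.08, while those of the canonical transcript took it to 0.14 (adjusted p = 0.0145 in edgeR). The kd2 difference of -0.11 missed the threshold (95% interval -0.24 to 0.02, adjusted p = 0.106 in edgeR) and took either direction under other settings. It was called higher with those offsets (0.31), and lower with those of the canonical transcript (-0.21), with library totals alone (-0.28), with at least 10 counts in every library (-0.15) and without the first kd2 library (-0.17). Gene counts do not separate the macroH2A1.1 and macroH2A1.2 splice forms.

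MACROH2A2, on chromosome 10 at 70052544-70112282 (plus strand, 9 exons with 8 coding), was the less abundant macroH2A gene. It was at 33.3 CPM in both control libraries, 85.1 and 84.1 CPM in kd1, and 40.8 and 37.1 CPM in kd2. The groups did not overlap, and kd1 stood far above the others. Against control the kd1 level was 2.54-fold higher (log2 fold change 1.35, SE 0.07, adjusted p = 1.44e-10 in edgeR), and it was called under all 17 alternative settings, from 0.99 to 1.88. The kd2 level was 1.17-fold higher (log2 0.23, SE 0.07, adjusted p = 0.00869 in edgeR). That smaller rise was called under 11 of the 17 settings, but not without the first kd2 library (0.15, adjusted p = 0.0622 in edgeR) or without either control library (adjusted p = 0.0539 and 0.0531 in edgeR), and its value ran from 0.05 with library totals alone to 0.59 with offsets for GC content and gene length.

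AIFM2, a gene on the opposite strand, shares 986 exonic bases with MACROH2A2 and had 112 to 359 counts a library. Its mean levels of 4.03 CPM in control, 10.7 CPM in kd1 and 5.10 CPM in kd2 moved in the same order. How the counting used strand is not given, so the part of shared reads was not tested. PITX1-AS1, which overlaps MACROH2A1 over 4706 bases on the opposite strand, had only 4 to 46 counts a library.

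The count of MACROH2A1 over that of MACROH2A2 was 7.07 and 6.94 in control, 3.44 and 3.85 in kd1, and 5.48 and 5.61 in kd2. All 4 knockdown libraries lay below both control libraries. The mean log2 ratio differed from control by -0.94 in kd1 and by -0.34 in kd2, and under the 3 kinds of offset by -0.88 to -0.79 and by -0.34 to -0.28. Over the 4 knockdown libraries the difference was -0.64 (exact permutation test, two-sided p = 0.133, the smallest possible). The 2 coding sequences were 68.5% identical and the transcripts shared no run longer than 17 bases.

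H1-10, a gene of 1 exon on chromosome 3 at 129314771-129316286 (minus strand), stood well above control in kd1. It was at 109.3 and 103.5 CPM in control, 307.2 and 343.3 CPM in kd1, and 102.3 and 78.7 CPM in kd2. The kd1 libraries stood far above the rest, and the higher kd2 library nearly reached the lower control library. In kd1 the level was 3.06-fold higher (log2 fold change 1.61, SE 0.09, adjusted p = 7.85e-10 in edgeR). With an offset for GC content the value was 0.83, with offsets for GC content and gene length 0.17 (adjusted p = 0.0158 in edgeR), and with those of the canonical transcript 0.45, still called higher each time. H1-10 has a GC content of 68.6%, above that of 99.4% of the tested genes.

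In kd2 the H1-10 value was -0.23 (SE 0.09, adjusted p = 0.0394 in edgeR). The call depended on the setting and on single libraries. The fall was larger with library totals alone (-0.41), with offsets for GC content and gene length (-0.49) and with those of the canonical transcript (-0.35), each called. Without the second kd2 library the value was -0.05 (adjusted p = 0.440 in edgeR), and without the first it was -0.44. It was also not called by DESeq2 (adjusted p = 0.227), without the first control library (adjusted p = 0.180 in edgeR) or without the second (adjusted p = 0.0666 in edgeR). With the replicate number as a block the adjusted p was 0.0554 in edgeR. H1-10-AS1 overlaps 345 of its exonic bases on the other strand and was not in the matrix under that name, and 17.1% of the 50-base windows of its transcript also lay in that antisense transcript.

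**Figure D3:**
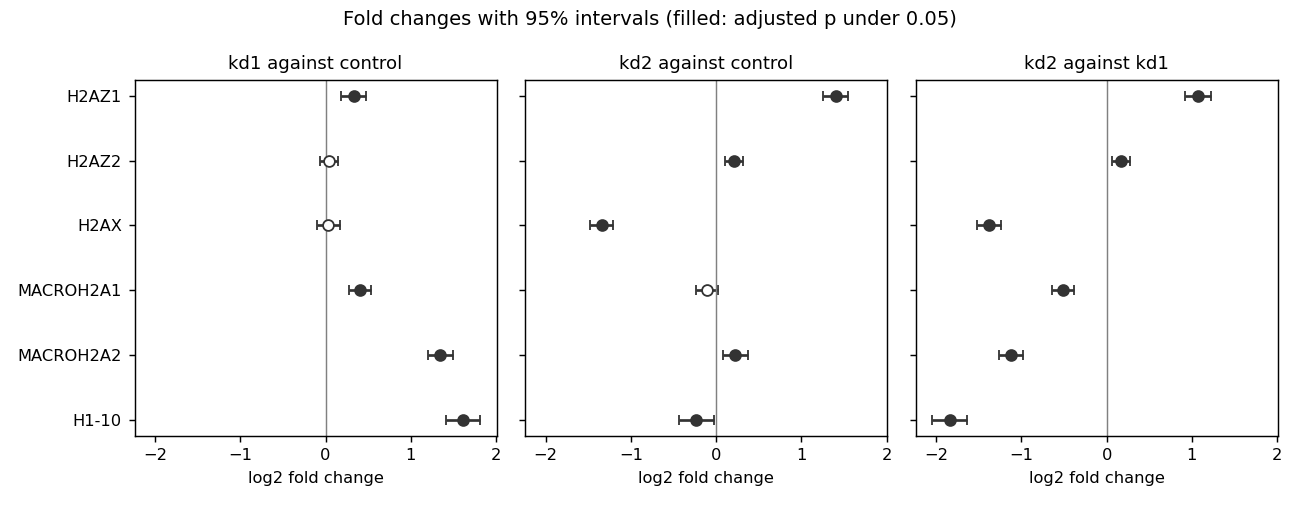
Log2 fold changes of the 6 tested variants (x axis) in kd1 against control, kd2 against control and kd2 against kd1, with 95% intervals from the edgeR fit. Filled points had an adjusted p under 0.05. H1-10 and MACROH2A2 stood at 1.61 and 1.35 in kd1, while H2AZ1 and H2AX stood at 1.40 and -1.34 in kd2.

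Tested directly, kd2 against kd1 called 2 variants higher and 4 lower in edgeR, where 34.9% of all genes were called higher and 33.8% lower. H2AZ1 was 2.10-fold higher in kd2 than in kd1 (log2 1.07, SE 0.07). H1-10 was 3.59-fold lower (log2 -1.84, SE 0.09), H2AX 2.60-fold lower (-1.38, SE 0.06), MACROH2A2 2.17-fold lower (-1.12, SE 0.07) and MACROH2A1 1.43-fold lower (-0.52, SE 0.06). Adjusted p-values of these 5 ran from 2.23e-10 to 2.38e-06 in edgeR. With offsets for GC content and gene length the H2AX difference shrank to -0.29 and that of H1-10 to -0.66, both still called. H2AZ2 differed by only 0.17 (adjusted p = 0.00652 in edgeR), a call lost without the first kd1 library (adjusted p = 0.0719 in edgeR), and this value turned to -0.18 with those offsets. ZMYND11 itself was 1.22-fold lower in kd2 than in kd1 (log2 -0.28, adjusted p = 0.00265 in edgeR). That call was lost with library totals alone (-0.10, adjusted p = 0.259 in edgeR), and offsets took the value as far as -0.68.

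**Figure D4:**
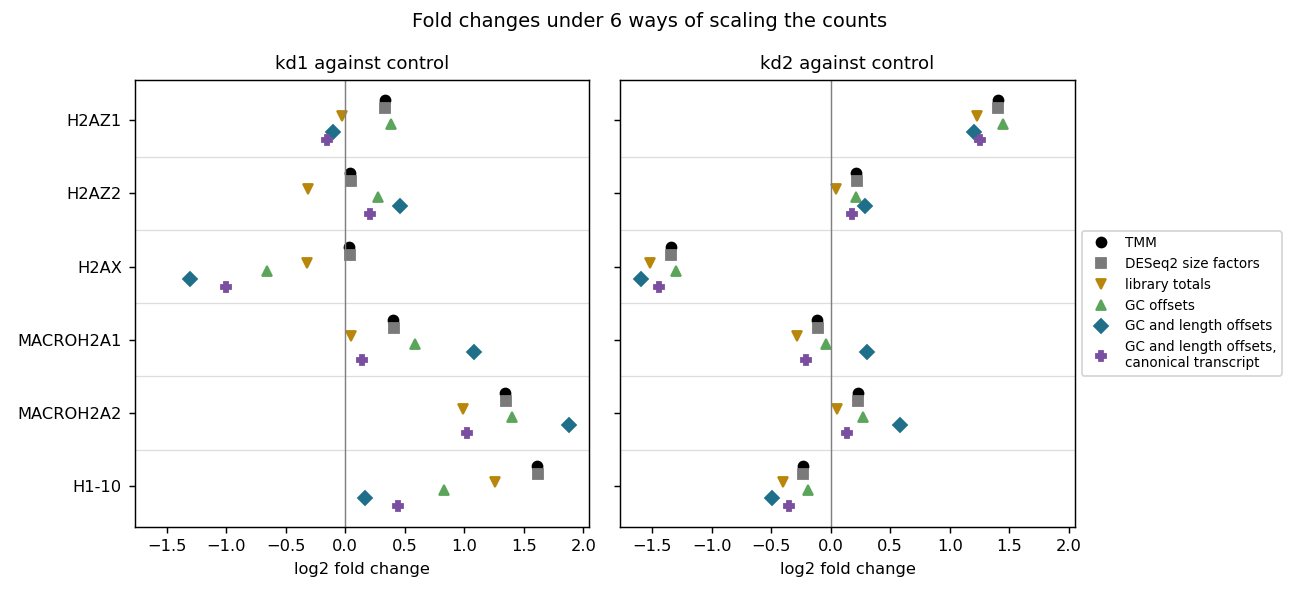
Log2 fold changes of the 6 tested variants (x axis) in kd1 (left) and kd2 (right) under 6 ways of scaling the counts. In kd1 the values of H2AX ran from 0.04 to -1.30 and those of H1-10 from 1.62 to 0.17, whereas in kd2 H2AZ1 stayed at 1.20 or more and H2AX at -1.30 or less.

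Levels were compared between genes per kilobase of canonical transcript, in CPM per kilobase. In control H2AZ1 was highest at 530.1 (SD 6.23, n = 2), followed by MACROH2A1 at 121.6 (SD 1.63) and H2AZ2 at 105.0 (SD 1.94). H1-10 stood at 70.2 (SD 2.68), H2AX at 58.5 (SD 1.59), MACROH2A2 at 17.2 (SD 0.0101) and H2AJ at 0.0519. No neighbours in this order overlapped in their libraries. In kd1 H1-10 stood at 214.6 and MACROH2A1 at 160.9. Carrying the control levels by the fold changes of each setting, H1-10 also lay above MACROH2A1 in kd1 with the DESeq2 size factors and with library totals alone, but below it with each of the 3 kinds of offset, at 124.8 against 183.1 for GC content, 79.0 against 257.9 with gene length added, and 95.7 against 133.8 for the canonical transcript. In kd2 H2AZ1 reached 1402, the highest under all 6 ways of scaling. H2AX stood at 23.0 in kd2, next to MACROH2A2 at 20.1 (22.0 and 24.1 against 19.2 and 21.1 in single libraries), and their order turned with offsets for GC content and gene length (19.4 against 25.8). The place of MACROH2A1 depended on the length used. Per kilobase of all its exons together, 17013 bases, it stood at 13.7 in control, below H2AX at 58.5. As this is bulk RNA, fewer cells with a transcript and less of it per cell cannot be told apart.

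The RNA of proteins that load and remove H2A.Z was measured as a list of 29 genes, all tested. In kd1 7 were higher and 12 lower with a median log2 fold change of -0.04, and in kd2 7 were higher and 13 lower with a median of -0.19. These are 24.1% higher and 41.4% lower in kd1, beside 38.2% and 39.8% of all genes, and 24.1% higher and 44.8% lower in kd2, beside 36.5% and 36.9%. With library totals alone the kd1 split was 4 higher and 22 lower (median -0.40), beside 27.8% and 51% of all genes (median -0.38). With offsets for GC content it was 11 higher and 12 lower, beside 39.1% and 39% of all genes. In both knockdowns the rises were led by MORF4L1 and VPS72. MORF4L1, a chromodomain subunit of the TIP60 complex, went from 204.4 and 208.2 CPM in control to 833.4 and 840.1 CPM in kd1 and 638.1 and 628.9 CPM in kd2 (log2 2.02 and 1.62). VPS72, the H2A.Z-binding subunit shared by the SRCAP and TIP60 complexes, rose by 1.43 and 1.02. EP400, the ATPase that exchanges H2A.Z in the TIP60 complex, fell from 92.6 and 90.2 CPM to 26.14 and 24.96 CPM in kd1 and 31.6 and 35.5 CPM in kd2 (log2 -1.84 and -1.45). TRRAP, its large scaffold, had log2 fold changes of -1.74 and -1.37. These 4 genes were called in the same direction under all 5 other scalings. SRCAP, the other exchange ATPase, was at -0.63 in kd1 (adjusted p = 0.0526 in edgeR) and at -1.13 in kd2 (adjusted p = 0.00266 in edgeR). Over the 5 other scalings it was called in 2 in kd1 (-0.98 to -0.12) and in 4 in kd2 (-1.30 to -0.62). ANP32E, a chaperone that removes H2A.Z, fell by 0.62 on the log2 scale in kd2 and by 0.16 in kd1, where its value ran from -0.51 to 0.15 over the other scalings.

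Around H2AX, 17 of the 20 listed kinases, phosphatases and readers were tested. In kd1 1 was higher and 14 lower (median -1.51), beside 38.2% and 39.8% of all genes, and in kd2 5 were higher and 11 lower (median -0.78), beside 36.5% and 36.9%. With offsets for the canonical transcript the kd1 split was 6 higher and 11 lower, beside 39.8% and 38.4% of all genes. BRCA1, a repair protein recruited to breaks, fell by 4.66 and 3.50 on the log2 scale, from 102.5 and 98.4 CPM in control to 4.06 and 3.85 CPM in kd1 and 7.64 and 10.2 CPM in kd2. MDC1, which binds phosphorylated H2AX, fell by 3.48 and 2.26. The 3 listed kinases that phosphorylate the H2AX serine were lower in both knockdowns, PRKDC at -2.43 and -1.64, ATR at -1.60 and -1.48, and ATM at -1.52 and -0.91. BAZ1B, which phosphorylates a tyrosine of H2AX, was lower by less, at -0.65 and -0.20, and its kd2 call held in 3 of the 5 other scalings, with values from -0.37 to 0.01. PPP4C, a phosphatase subunit that acts on phosphorylated H2AX, was the only gene of the list called higher in both, at 1.33 and 0.89. BRCA1, MDC1, PPP4C, PRKDC, ATR and ATM were called in the same direction under all 5 other scalings. With offsets for GC content and gene length the list medians were -0.59 in kd1 and -0.36 in kd2.

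The 10 macroH2A partners held 1 gene called higher and 5 lower in kd1 and 3 higher and 6 lower in kd2, with medians of -0.33 and -0.25. Over all genes 38.2% were called higher and 39.8% lower in kd1, and 36.5% and 36.9% in kd2. The kd1 split depended on the scaling. By library totals alone 0 were higher and 10 lower, where 27.8% of all genes were called higher and 51% lower. There were 4 higher and 3 lower (median 0.06) with offsets for GC content and gene length, beside 39.1% and 38.2% of all genes. HELLS, a remodelling ATPase, fell by 3.22 and 2.14 on the log2 scale, and SSRP1, a subunit of the FACT chaperone, by 0.81 and 0.89. PARP1, which makes the ADP-ribose polymer, was at -0.01 in kd1 (adjusted p = 0.921 in edgeR, from -0.36 to 0.59 over the other scalings) and fell by 0.45 in kd2, a call lost in 1 of the 5 other scalings. SPOP, the adaptor of the ubiquitin ligase that modifies macroH2A1, rose by 0.36 in kd2 and was at -0.12 in kd1 (adjusted p = 0.0882 in edgeR, from -0.47 to 0.25 and called in 2 of the 5 other scalings).

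Of the 9 linker histones and their chaperones besides H1-10, 7 were tested, with 4 higher and 2 lower in kd1 (38.2% and 39.8% over all genes) and 2 higher and 3 lower in kd2 (36.5% and 36.9% over all genes). H1-2, a replication-dependent linker histone, went from 12.8 and 13.1 CPM in control to 413.3 and 457.2 CPM in kd1 and 35.5 and 31.3 CPM in kd2 (log2 fold change 5.07 and 1.37). Its kd1 libraries stood far above those of kd2. H1-4 was at 2.64 in kd1 and missed the threshold in kd2 at 0.61 (adjusted p = 0.0992 in edgeR). Among the chaperones, SET rose by 0.59 and 0.30 on the log2 scale, while PTMA fell by 1.66 and 1.70 and NASP by 0.85 and 0.91. H1-2 and these 3 chaperones were called in the same direction under all 5 other scalings.

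The replication-dependent H2A genes, whose RNAs usually end in a stem-loop without a poly(A) tail, were low in control, at a summed 52.9 and 51.3 CPM. The sum was 612.4 and 611.5 CPM in kd1 and 206.0 and 187.5 CPM in kd2. Of 17 listed genes 7 were tested. H2AC14 and H2AC16 passed the filter through kd1 alone, with 19 to 31 counts there and at most 12 in any other library, so a higher kd1 level was built into their being tested. The other 5 were all higher in kd1, beside 38.2% of all genes called higher and 39.8% lower, and 4 were higher and 1 lower in kd2, beside 36.5% and 36.9%. With library totals alone and with each of the 3 kinds of offset, 4 of these 5 were called higher in kd1 and none lower. Over all genes 27.8% were higher and 51% lower with library totals alone. With the offsets 39.1% to 39.8% were higher and 38.2% to 39% lower. H2AC6 made up most of the sum, at 42.4 and 40.5 CPM in control, 538.8 and 534.8 CPM in kd1, and 182.2 and 162.5 CPM in kd2. The methods name both poly(A) isolation and rRNA removal without saying which was used here, so how fully such RNAs were captured is unknown. The 7 replacement variants together summed to 1242 and 1244 CPM in control, 1673 and 1767 CPM in kd1, and 2095 and 1836 CPM in kd2.

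**Figure D5:**
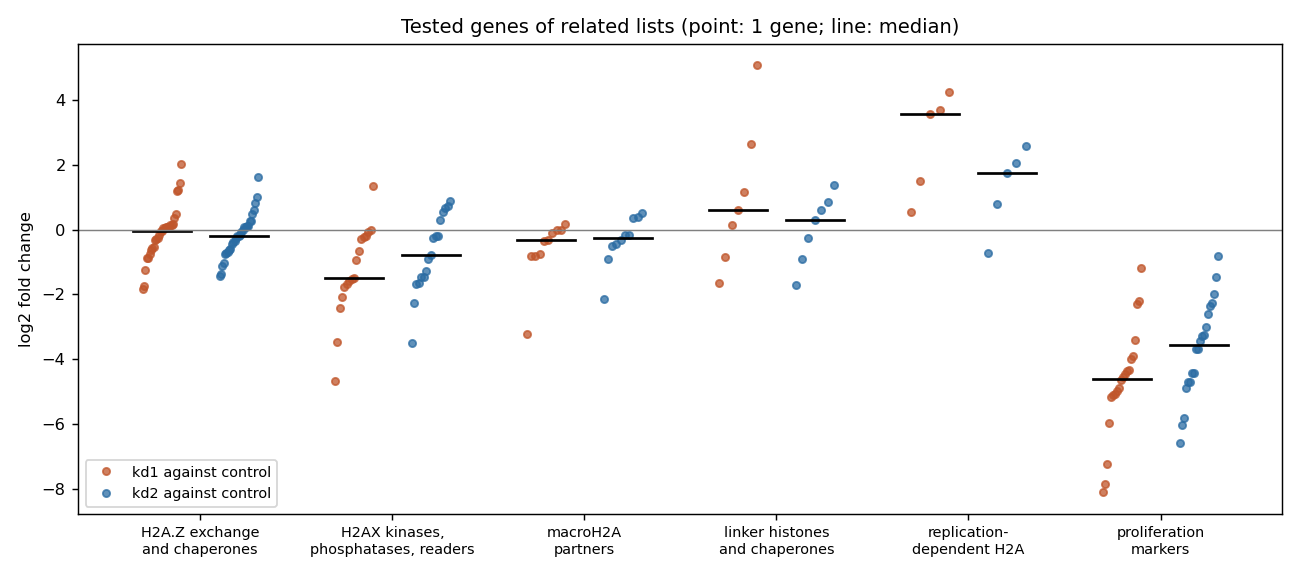
Log2 fold changes of the tested genes of 6 related lists, in kd1 and kd2 against the same control libraries, without H2AC14 and H2AC16. Points are genes and lines medians. The H2AX list has medians of -1.51 and -0.78 and the proliferation markers of -4.60 and -3.55, while the replication-dependent H2A genes have medians of 3.56 and 1.75 over the 5 shown (1.93 and 0.80 over all 7 tested).

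For each tested variant, the 2 genes with the most similar levels over the 6 libraries were found among 12351 genes with a mean of at least 1 on the log2 CPM scale, by the root mean square difference of log2 CPM from the control mean. H2AZ1 was followed most closely by TSPAN13 and ZNF330, at differences of 0.05 and 0.06. H2AX lay nearest SCIRT and KRTCAP3 (0.08 and 0.10), which were at 0.11 and 0.13 in kd1 and -1.38 and -1.24 in kd2. MACROH2A2 lay nearest CTAG2 and ATXN10 (0.05 for each), and H1-10 nearest PAFAH1B3 and ANTKMT (0.07 for each). The nearest genes were EIF4G2 and ADAM15 for H2AZ2 (0.02 for each), and DMAC1 and LRWD1 for MACROH2A1 (0.02 for each). With 6 libraries in 3 groups, such likeness is a description only.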

How the data were processed

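The 6 libraries of 22Rv1 RNA, 2 per group, were assigned to control, ZMYND11 kd1 and ZMYND11 kd2 from their labels. The authors deposited whole-number read counts for each gene symbol, without normalization. Per the submitters' processing notes, the authors used FastQC 0.11.9, STAR 2.7.9a, HTSeq 0.13.5 and hg38. The annotation, strand setting and treatment of reads with several matches are not given in the sources used here. All 6 count columns were used.

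Genes were filtered by filterByExpr, scaled by TMM and tested with the quasi-likelihood test of edgeR 4.0.16 in R 4.3.3, in one fit of 3 groups with 3 residual degrees of freedom. Benjamini-Hochberg adjustment covered all 16510 genes, with a threshold of 0.05. The SE was obtained as the absolute log2 fold change over the root of the F statistic. The test was checked on simulated counts. Alternatives were DESeq2 1.42.0 (its Wald test, and its size factors in edgeR), library totals alone, lowess offsets (span 0.3) for GC content and length, other filters, only the groups compared, a minimum fold of 1.5, a replicate block, and leaving out each library. The offsets for GC content alone and for the canonical transcript, and all offsets for the ratios, were added after seeing the data. Of the symbols, 32852 matched GENCODE 44 by name and 237 by an older symbol, while 2233 did not match. Library totals of 26844128 to 38193748 counts set the precision of low counts.

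The members and gene lists were chosen with earlier results of these data known. Named were all members, the targeted gene, the 2 genes most like each member, and in each of 4 lists up to 2 highest and 2 lowest genes with calls of equal direction in kd1 and kd2. Other genes were named after their values were seen, to complete a list. The results of 12 lists are given. The 6 fibroblast markers summed to 35.9 and 33.2 CPM in control, 86.6 and 87.2 CPM in kd1, and 44.3 and 44.7 CPM in kd2, most of it COL1A1 (23.9, 74.5 and 31.2 mean CPM), with 2 of 6 called higher and 1 lower in kd1 (38.2% and 39.8% of all genes) and 3 higher and 2 lower in kd2 (36.5% and 36.9%). COL3A1 and PDGFRB among them passed the filter through control alone.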

Additional observations from a re-analysis of the deposited data

Results flagged for a closer look

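All 6 tested variants differed between the knockdowns by the direct edgeR test of kd2 against kd1, which compares their effects because both share the control libraries. Of all tested genes, 34.9% were called higher and 33.8% lower in this comparison. The log2 differences, kd2 minus kd1, were -1.84 for H1-10 (adjusted p = 5.38e-10), -1.38 for H2AX (adjusted p = 2.23e-10), 1.07 for H2AZ1 (adjusted p = 5.25e-09), 0.17 for H2AZ2 (adjusted p = 0.00652), -0.52 for MACROH2A1 (adjusted p = 2.38e-06) and -1.12 for MACROH2A2 (adjusted p = 2.07e-09). H2AX was not called in kd1 and fell in kd2, while H1-10 rose in kd1 and had a value of -0.23 in kd2. With library totals alone and the 3 kinds of offset H2AX was called lower in kd1 too (-0.32 to -1.30), and with offsets for GC content and gene length the difference between the knockdowns was -0.29 for H2AX and -0.66 for H1-10. H2AZ2 turned sign under 3 of the 17 alternative settings and lost its call without the first kd1 library. The kd1 and kd2 libraries differ both in the knockdown and in the cultures or preparations behind them, and these cannot be told apart.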

How the results depend on the processing

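Of 306 values of single variants over 17 alternatives and 3 comparisons, 267 kept their side of the threshold without a called change of direction. Some of these changed sign with neither value called, as H2AX did in kd1 with at least 10 counts in every library (-0.0096). Scaling by library totals alone shifted the median log2 fold change of all genes to -0.38 in kd1, -0.20 in kd2 and 0.21 between them, and split all calls into 4596 higher and 8420 lower in kd1 (6310 and 6572 with TMM) and 7065 higher and 4506 lower between the knockdowns (5767 and 5588 with TMM). It gave 2 variants higher and 2 lower in kd1 (27.8% and 51% of all genes) and 1 higher and 3 lower in kd2 (30.1% and 43.7%). Its kd1 values were -0.023 for H2AZ1, -0.31 for H2AZ2 and -0.32 for H2AX. A minimum fold of 1.5 left 2 higher in kd1 and 1 higher and 1 lower in kd2. In kd2 against kd1 it left 1 higher, with H1-10, H2AX and MACROH2A2 lower. It called 24.4% of all genes higher and 26.5% lower in kd1, 18.6% and 21.5% in kd2, and 15.8% and 16.9% between them. Variants lower in kd1 numbered 1 with GC and length offsets, 1 with GC offsets alone and 2 with offsets of the canonical transcript (38.2%, 39.0% and 38.4% of all genes). In kd2 against kd1 each of these left 1 higher (34.1%, 34.0% and 34.3% of all genes), with 5, 4 and 4 lower (33.7%, 33.2% and 34%). In that order the kd1 value of H2AX was -1.30, -0.66 and -1.002, and the kd2 minus kd1 value of H2AZ2 was -0.175, -0.058 and -0.028. H2AZ1 in kd1 was -0.10 with GC and length offsets and -0.15 with those of the canonical transcript, and MACROH2A1 in kd2 was 0.31 with the former. DESeq2 called 1 variant lower in kd2 (33.7% of all genes). The replicate block also called 1 lower in kd2 (35.5% of all genes), losing H1-10, and it lost no other call of a variant. Libraries with the same number did not deviate together over genes (correlations 0.01, -0.03 and -0.04). Whether the numbers pair libraries is not given in the sources used here and cannot be decided from these correlations. Leaving out single libraries left H1-10 in kd2 between -0.44 (without the first kd2 library) and -0.05 (without the second). It left H2AZ2 in kd2 against kd1 between 0.16 and 0.19. MACROH2A2 in kd2 lost its call without the first kd2 library (adjusted p = 0.0622 in edgeR) or either control library, and H2AZ2 in kd2 against kd1 without the first kd1 library (adjusted p = 0.0719 in edgeR). The log2 ratio of H2AZ1 to H2AZ2 in kd2 minus control ran from 1.05 to 1.31, and that of MACROH2A1 to MACROH2A2 in kd1 minus control from -1.03 to -0.86. With offsets the former was 0.11 (GC alone), -0.57 (GC and length) and -0.36 (canonical transcript) in kd1 and 0.91 and 1.07 in kd2 with the last 2 of these, and the latter was -0.81 and -0.79 in kd1 with the first 2. The causes of these changes were not tested. Depth limits H2AJ alone among the members.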
